A study of Mus musculus with 2 samples.

Results

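The histone genes of G1E-ER4 cells were read from total RNA sequenced after erythroid differentiation had been induced. Members were the protein-coding genes of the GENCODE M21 annotation whose symbols begin with Hist1h, Hist2h, Hist3h, Hist4h, H2af, H3f3 or H1f. The annotation held 82 such genes, and 79 of them were listed in the deposited tables, out of 21461 nuclear protein-coding genes. Hist1h2bh, Hist1h2bm and Hist2h2bb were not analysed here. The 64 genes whose symbols begin with Hist are called clustered, after the gene clusters in which most of them lie, and the other 15 are called variant.

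G1E-ER4 is an immortalized mouse erythroid line of strain C57BL/6J, labelled as having Gata1 restored, in which estradiol starts differentiation. Both cultures carried the restored GATA1 and received 10 nM 17β-estradiol for 24 h, and they form 1 group with 2 biological replicates. With 1 group there was no contrast and no test, so each value is given in replicate 1 and replicate 2, or as a mean ± SD (n = 2). No change with estradiol was measured.

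Replication-dependent histone genes supply the chromatin of newly copied DNA during S phase. Their transcripts have no introns, and most carry no poly(A) tail: they end after a short hairpin, the stem-loop, that is bound by the stem-loop binding protein SLBP and cut by the U7 ribonucleoprotein. Variant genes such as H3f3a or H2afz are usually spliced and polyadenylated, are transcribed outside S phase as well, and place their proteins by dedicated chaperones. In red cell precursors, chromatin is still being copied in the last divisions before it condenses and the nucleus is expelled. Total RNA, unlike RNA selected by its poly(A) tail, keeps both kinds of histone transcript.

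The stem-loop was looked for in the gene models first. The motif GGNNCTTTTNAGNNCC, in which N is any base, was searched on the transcript strand of the M21 models, taken from GENCODE. It was present in 42 of the 64 clustered genes and in 1 of the 15 variant genes, H2afx, against 0.159% of 21949 other protein-coding genes. In all 43 members with the motif the 6 bases at either end could pair, around a loop of 4 bases. The motif itself sets the loop length and every stem pair except those of its N letters, so only these pairs could vary. The motif began 21 to 58 bases after the stop codon of clustered genes, with a median of 31.5. Of the 22 clustered genes without it, 14 had models that ended within 30 bases after the stop codon, so their 3′ ends could not be searched. The sites of 6 genes are shown, with the stem-loop in capitals and 5 bases on either side, because together they hold each stem form and the forms differ between classes.
Hist1h1e: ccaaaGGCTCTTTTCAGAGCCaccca
Hist2h3c2: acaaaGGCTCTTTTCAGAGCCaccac
Hist1h2bk: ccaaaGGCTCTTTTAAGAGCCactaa
Hist1h4d: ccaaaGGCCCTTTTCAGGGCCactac
Hist1h4b: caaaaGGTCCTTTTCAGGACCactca
H2afx: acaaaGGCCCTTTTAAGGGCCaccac
All 31 clustered H1, H2A, H2B and H3 genes with a stem-loop had stems that read GGCTC on the 5′ side. None of the 11 H4 genes did: 9 read GGCCC and 2, Hist1h4b and Hist1h4j, read GGTCC. The loop letters varied less by class, and the form shown for Hist1h1e was present in 24 clustered genes. H2afx, the damage-signalling variant H2A.X, had the GGCCC stem of H4 genes. A match in letters is a description of these models and not a measured transcript end.

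The libraries held 50277914 and 47478888 expected counts, the estimated reads that the deposited tables assign to features. Histone genes took 172635 and 142113 of them, which was 1.20% and 1.02% of the counts on nuclear protein-coding genes. On TPM, which divides by effective transcript length and scales each library to the same total, they held 5.18% and 4.45% of the protein-coding total. The cells' label was checked against markers: all 10 erythroid genes were detected, with Hbb-bs highest at 993.85 and 1008.37 TPM. Their median was 46.5 TPM, and the lowest were Slc4a1 (3.10 and 3.32) and Epb42 (1.52 and 2.00). No lymphoid or germ line marker had a read. No granulocyte or macrophage marker of 6 reached 1 TPM in both libraries, and their summed TPM was 0.97 and 4.10. Cd68 (0.90 and 2.08 TPM) and Mpo (0.06 and 1.29) passed 1 TPM in replicate 2 only. Elane had 0 and 0.68, Itgam 0.01 and 0.05, and Csf1r and Ly6g were at 0. The megakaryocyte markers Pf4 (18.96 and 10.54 TPM), Itga2b (5.75 and 6.94) and Gp1ba (4.42 and 3.82) were detected, and so was 1 of 3 mast cell markers (Cpa3, with Mcpt8 and Fcer1a at 0). The part of such cells in the histone levels was not tested. In RNA from whole cultures, fewer cells of a type and less RNA per cell cannot be told apart.

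Genes reaching 1 TPM in each of the 2 libraries count as detected. By this rule 62 of the 79 histone genes were detected, against 40.2% of all nuclear protein-coding genes. The 62 were 55 of 64 clustered and 7 of 15 variant genes. The median TPM of the detected members was 84.3, and that of all detected protein-coding genes was 9.76. Of the 100 highest nuclear protein-coding genes by mean TPM, 11 were clustered histone genes and none was a variant. The variants H3f3a and H2afz stood just past this cut, at ranks 104 and 110. Nearest the threshold, the lowest detected member was Hist1h4j (3.70 and 1.29 TPM), and the highest with a mean under 1 was Hist3h2ba (1.53 and 0.25 TPM).

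**Figure D1:**
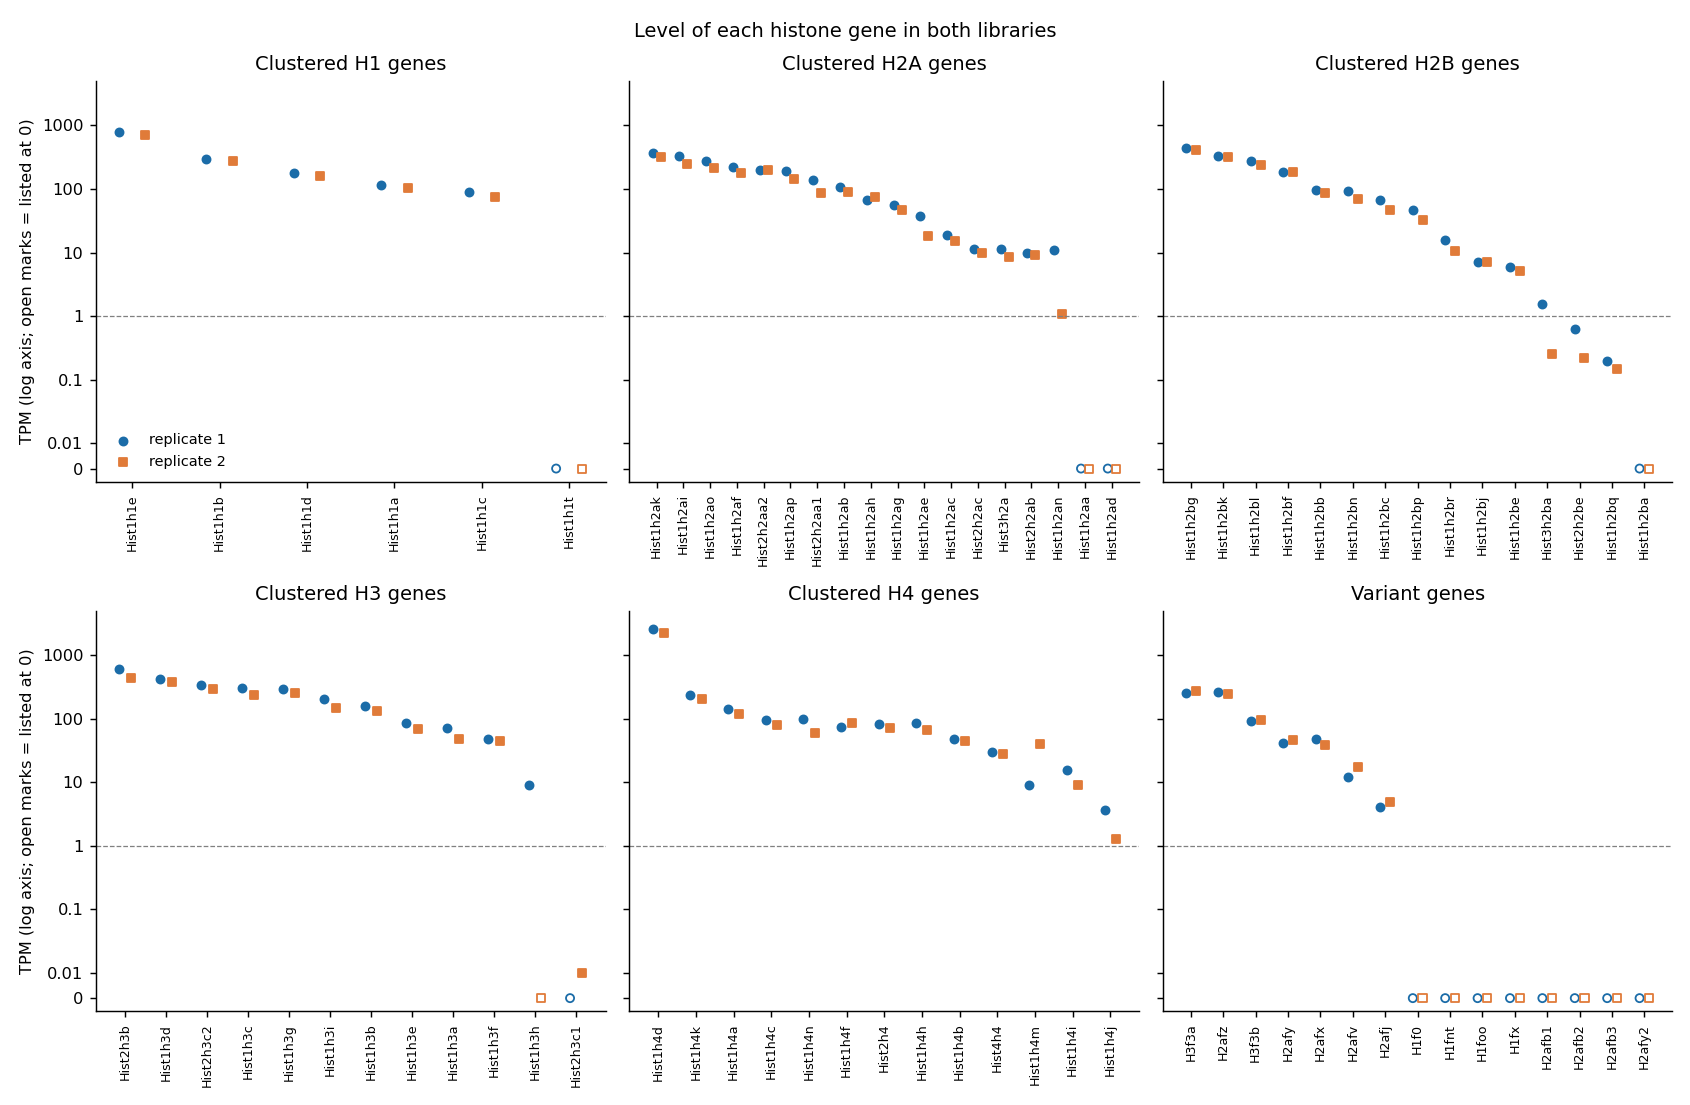
TPM of each of the 79 listed histone genes in replicate 1 (circles) and replicate 2 (squares), on a log axis, with open marks for genes listed at 0 and a dashed line at a TPM of 1. Clustered genes spread over several orders of magnitude within each class, Hist1h4d stands above all others, and 8 of the 15 variant genes are listed at 0 in both libraries.

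Clustered genes held 94.0% of the summed histone TPM in replicate 1 and 93.0% in replicate 2. Their summed TPM was 11030 and 9459, beside 704.5 and 712.9 for the variant genes. On expected counts, which carry no correction for length, the clustered share was 86.1% ± 1.04. Detected clustered genes had a median listed length of 480 nt and detected variant genes one of 1384 nt. By class, the summed TPM of the clustered genes was 3243 ± 268 for H4, 2269 ± 362 for H3, 1855 ± 276 for H2A, 1487 ± 111 for H2B and 1390 ± 94.3 for the linker histone H1. The replicates of H4 and H3 did not overlap, and neither did those of H2A and H2B. The ranges of H3 and H2A overlapped, as did those of H2B and H1. Within each library H3 was nonetheless above H2A, and H2B above H1. Relative to H4, the summed TPM was 0.697 ± 0.0540 for H3, 0.570 ± 0.0378 for H2A, 0.459 ± 0.00357 for H2B and 0.429 ± 0.00635 for H1. The order of the classes depended on dividing by length. Of the clustered counts, H4 took 25.3% ± 0.527, H3 25.2% ± 1.00, H1 22.0% ± 0.851, H2A 14.9% ± 0.679 and H2B 12.6% ± 0.304, so H1, last on TPM, stood above H2A and H2B.

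**Figure D2:**
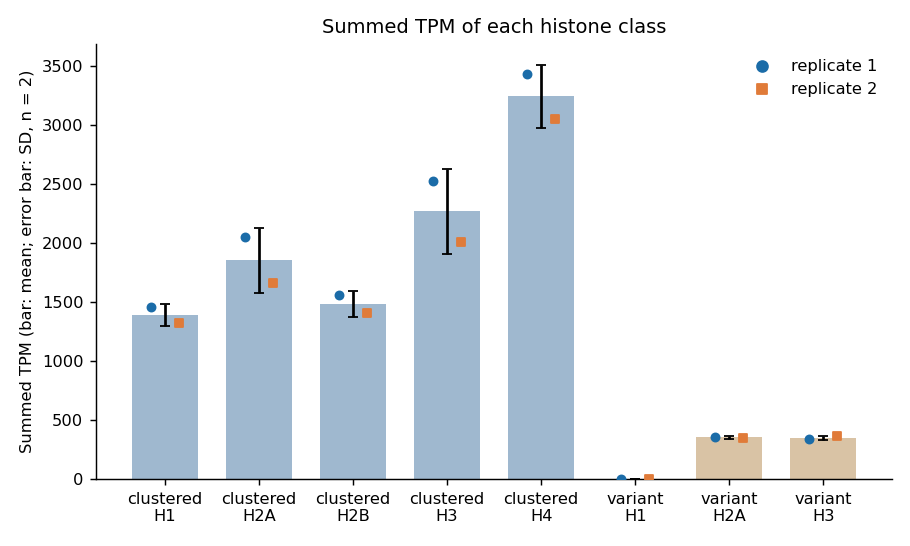
Summed TPM of the clustered and variant genes of each histone class, with bars for the mean, error bars for the SD (n = 2), circles for replicate 1 and squares for replicate 2. Clustered H4 genes reach 3243 TPM and each variant class with a detected gene about 350, and the 4 variant H1 genes are listed at 0.

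H4 is the core histone with a single protein form, and here 13 genes with 12 different coding sequences encoded 1 product. The class rested on 1 gene. Hist1h4d (ENSMUSG00000061482.6, chromosome 13, 23581598 to 23582735, mm10, plus strand) had 22812 and 19051 expected counts and 2525 and 2250 TPM. It was the third highest nuclear protein-coding gene by mean TPM. It held 73.6% ± 0.0809 of the H4 TPM and 61.1% ± 0.0868 of the H4 counts, and 21.8% ± 0.425 of all histone TPM. The next H4 gene, Hist1h4k, had 231.89 and 203.41 TPM, so Hist1h4d stood 10.97 ± 0.121 times higher on TPM. On expected counts the next was instead Hist2h4, a longer model, with 4038 and 3362. Hist1h4a followed at 129 ± 14.9 TPM, Hist1h4c at 86.1 ± 10.6, Hist1h4n at 79.7 ± 27.5 and Hist1h4f at 78.5 ± 8.17. These last 3 did not differ beyond their spread. Without Hist1h4d the class summed to 856 ± 73.3 TPM, below every other clustered class. All 13 H4 genes were detected, down to Hist1h4j.

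H3 genes fell into 2 replication-dependent products. Hist1h3b, Hist1h3c, Hist1h3d, Hist1h3e, Hist1h3f, Hist2h3b, Hist2h3c1 and Hist2h3c2 encode the same protein, known as H3.2, and together held 67.1% ± 1.40 of all H3 TPM, variants included. Hist1h3a, Hist1h3g, Hist1h3h and Hist1h3i encode H3.1 and held 19.3% ± 0.997. The highest gene on TPM was Hist2h3b on chromosome 3 (608.37 and 427.85 TPM), followed by Hist1h3d (412.36 and 374.25), Hist2h3c2 (334.73 and 287.28) and Hist1h3c (301.02 and 239.33). Hist1h3g led the H3.1 genes at 287.94 and 249.55, ahead of Hist1h3i at 206.24 and 145.70. On expected counts Hist2h3c2 (9945 and 8078) stood above Hist2h3b (7402 and 4897). On TPM Hist2h3c2 and Hist1h3c overlapped, as did Hist1h3c and Hist1h3g. Hist2h3c2 was above Hist1h3c in both libraries, while Hist1h3c and Hist1h3g changed order. The lowest detected H3 gene was Hist1h3f (45.9 ± 2.69 TPM). Hist2h3c1, whose coding sequence is identical to that of Hist2h3c2, had no count in replicate 1 and 0.48 in replicate 2. Every 50-base window of Hist2h3c1 also occurs in another gene, so its level and that of Hist2h3c2 rest on how reads were shared out.

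In H2A the 3 highest genes held 47.2% of the clustered TPM, against 53.9% for H3, 67.7% for H2B, 84.3% for H4 and 86.1% for H1. This share also depends on the number of clustered genes listed: 18 for H2A, 12 for H3, 15 for H2B, 13 for H4 and 6 for H1. Hist1h2ak led with 371.61 and 316.77 TPM, followed by Hist1h2ai (332.09 and 247.38), Hist1h2ao (271.30 and 214.07) and Hist1h2af (220.70 and 180.43). Hist2h2aa2 and Hist1h2ap followed at 199 ± 2.98 and 167 ± 34.1 TPM. From Hist1h2ak down to Hist2h2aa2 each gene overlapped the next, while Hist1h2ak and Hist1h2ao did not overlap. From Hist1h2ak to Hist1h2af the order was the same in both libraries. A set of 9 genes (Hist1h2ab, Hist1h2ac, Hist1h2ad, Hist1h2ae, Hist1h2ag, Hist1h2ai, Hist1h2an, Hist1h2ao and Hist1h2ap) encodes 1 product, which held 40.5% ± 2.80 of all H2A TPM. The lowest detected clustered H2A gene was Hist1h2an (10.80 and 1.10 TPM). Hist1h2ad, which shares all its coding windows of 50 bases with other genes, had no count in either library. The deposited interval of its estimate reached 2.87 and 3.32 TPM.

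H2B had 11 detected genes of 15. Hist1h2bg led with 444.37 and 406.97 TPM, then Hist1h2bk (325.13 and 317.97), Hist1h2bl (277.55 and 238.57) and Hist1h2bf (183.07 and 183.96). None of these 4 overlapped its neighbour between replicates. Hist1h2bb and Hist1h2bn followed at 91.6 ± 6.72 and 82.5 ± 16.7 TPM, with overlapping ranges, and Hist1h2bb was the higher in both libraries. The lowest detected gene, Hist1h2be (5.97 and 5.19 TPM), has a long model of about the length of Hist2h2be, which was listed at 0.63 and 0.22. Hist1h2bf, Hist1h2bj, Hist1h2bl and Hist1h2bn encode 1 product with 35.7% ± 0.255 of the H2B TPM, and Hist1h2bc, Hist1h2be and Hist1h2bg another with 32.9% ± 0.318. Hist1h2bk alone made up 21.7% ± 1.28. Hist1h2ba and its neighbour Hist1h2aa, known as testis histone genes, had no count, and neither did the testis linker gene Hist1h1t.

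H1 linker histones bind where DNA enters and leaves the nucleosome. In contrast to the core histones, each H1 gene encodes its own protein. Hist1h1e had 775.41 and 707.58 TPM, 53.4% ± 0.169 of the class. Hist1h1b (292.87 and 276.63), Hist1h1d (181.77 and 158.81), Hist1h1a (117.37 and 104.35) and Hist1h1c (89.28 and 75.95) followed in the same order in both replicates, with no overlap between neighbours. Hist1h1e (chromosome 13, 23620629 to 23622558, mm10, minus strand) overlaps the annotated model of Hist1h2be on the same strand. Hist1h1c has a listed length of 1560 nt, the other 4 genes 642 to 748 nt, and its TPM depends on that length.

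The clustered genes lie in 7 groups, parted by at least 100000 bases. The group at chromosome 13, 23531050 to 23764406 (mm10), held 28 genes and 61.3% ± 1.12 of the clustered TPM. The group at 21715763 to 21837530 on the same chromosome held 17 genes and 21.7% ± 0.829, and the group at 22035164 to 22043676 held 5 genes and 4.53% ± 0.384. The 9 genes of chromosome 3, 96219865 to 96269141, held 12.0% ± 0.674. Hist4h4 on chromosome 6 and the pair on chromosome 11 (Hist3h2a and Hist3h2ba) held 0.278% ± 0.0152 and 0.105% ± 0.0166. The last group, Hist1h2ba and Hist1h2aa at chromosome 13, 23933773 to 23934851, had no count.

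Many H2A and H2B genes stand head to head on opposite strands. There were 12 such pairs, each of 1 H2A and 1 H2B gene, with starts 176 to 306 bases apart. In 8 pairs both genes averaged 1 TPM or more, and there the higher gene exceeded the lower by 1.12 to 15.3 times, with a median of 5.58. Hist1h2ai and Hist1h2bl were the closest pair, at 290 ± 59.9 and 258 ± 27.6 TPM, which overlapped between replicates. Within each library Hist1h2ai was the higher. Hist1h2ae and Hist1h2bg were the farthest apart, at 27.8 ± 13.9 and 426 ± 26.4. The H2A gene was the higher in 4 pairs and the H2B gene in 4. Spearman's rho between partners was 0.143 over these 8 pairs, which come from the same 2 libraries and share sequence with other copies. In 3 further pairs 1 gene was below a TPM of 1: Hist1h2ao with Hist1h2bq, Hist1h2bf with Hist1h2ad, and Hist2h2ac with Hist2h2be.

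**Figure D3:**
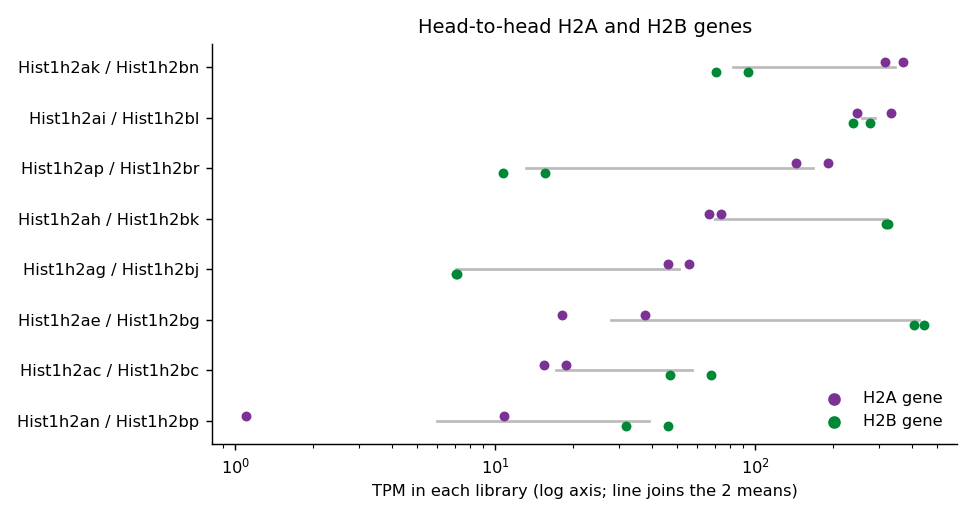
TPM of the H2A and H2B gene of the 8 head-to-head pairs in which both averaged 1 TPM or more, on a log axis, with 2 points per gene (1 for each library) and a line between the means. The genes of 1 pair, Hist1h2ai and Hist1h2bl, overlap, and the partners of the others stand 3.36 to 15.3 times apart.

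Promoters, taken from RefSeq (GRCm38.p6) as 250 bases before to 50 bases after the start, were matched for 73 members, 59 of them clustered. The CCAAT box, the TATA box and the octamer, motifs known from histone promoters, were searched on both strands, with overlaps between them allowed. CCAAT was present in all 47 clustered H1, H2A, H2B and H3 promoters and in 3 of 12 H4 promoters, and in 10 of 14 variant promoters (71.4%), against 37.4% of 32851 promoters. TATAAA was present in 35 of 59 clustered promoters (59.3%), in 1 of 14 variant promoters, and in 13.6% of all. The octamer ATTTGCAT was present in 7 of 18 H2A and 4 of 13 H2B promoters, in no clustered H1, H3 or H4 promoter, and in 1.74% of all. Promoters of head-to-head genes cover some of the same DNA, so a single site can count for both partners. The octamers of Hist1h2ba, Hist1h2bg and Hist1h2bk are the same sites as those of Hist1h2aa, Hist1h2ae and Hist1h2ah. Some TATAAA matches are shared in this way too, such as that of Hist1h2bk with Hist1h2ah. The 150 bases before the start of 4 genes are shown with the motifs in capitals, on the gene's strand. They are the highest H4, H1 and H2B genes and H2afz, for contrast with a variant gene that has no TATAAA.
Hist1h4d (chr13:23581418-23581567, plus strand): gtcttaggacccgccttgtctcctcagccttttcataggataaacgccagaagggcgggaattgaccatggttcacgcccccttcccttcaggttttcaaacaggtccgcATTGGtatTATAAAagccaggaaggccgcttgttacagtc
Hist1h1e (chr13:23622559-23622708, minus strand): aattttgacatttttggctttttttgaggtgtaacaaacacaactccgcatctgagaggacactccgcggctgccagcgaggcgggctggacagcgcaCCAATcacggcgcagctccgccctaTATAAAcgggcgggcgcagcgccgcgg
Hist1h2bg (chr13:23571250-23571399, plus strand): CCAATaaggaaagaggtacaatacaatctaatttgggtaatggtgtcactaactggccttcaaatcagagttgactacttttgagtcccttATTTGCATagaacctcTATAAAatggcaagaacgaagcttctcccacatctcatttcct
H2afz (chr3:137864337-137864486, plus strand): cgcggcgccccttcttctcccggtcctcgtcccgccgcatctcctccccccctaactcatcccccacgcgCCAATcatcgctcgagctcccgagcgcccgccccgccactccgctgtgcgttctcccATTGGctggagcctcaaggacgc
Hist1h4d was 1 of the 3 H4 genes with CCAAT, there on the opposite strand (ATTGG) and 3 bases before TATAAA. A match describes these letters and shows no binding.

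Of the variant genes, 7 were detected. H3f3a and H3f3b, which both encode the replacement histone H3.3, had 249.48 and 268.18 TPM and 92.35 and 95.74 TPM. H3f3b stood at 0.364 ± 0.00931 of H3f3a on TPM but at 0.868 ± 0.0306 on expected counts, with listed lengths of 1752 nt and 834 nt in replicate 1. Together they held 13.6% ± 2.39 of all H3 TPM and 23.7% ± 2.66 of the H3 counts. Both genes share sequence with processed pseudogenes: the pseudogene-typed H3f3c, which the rule leaves out, had 87.11 and 61.69 TPM. The centromeric H3 variant gene Cenpa, also outside the rule, had 31.80 and 30.31 TPM.

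H2afz, which encodes H2A.Z, led the H2A variants with 257.86 and 243.07 TPM. H2afy (macroH2A1) had 41.45 and 45.44 TPM and H2afx 47.40 and 38.36, which overlapped. H2afv, the second H2A.Z gene, had 11.91 and 17.19, and H2afj 4.07 and 4.89. H2afz exceeded H2afx by 5.89 ± 0.634 times and H2afv by 17.9 ± 5.31 times. H2afv had 348 and 526 counts. All coding windows of H2afz also occur in other genes, with the pseudogene-typed Gm8203 sharing the most, so its level rests in part on its untranslated sequence. H2A variants together held 16.2% ± 1.65 of all H2A TPM and 36.0% ± 2.60 of the H2A counts.

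Transcript shares, the deposited percent of a gene's TPM given to each transcript, showed 1 leading coding form for most variant genes. H2afz-201 had 70.99% and 74.78% of its gene's TPM, and H3f3b-201 had 78.65% and 73.03%. H3f3a-201 had 63.91% and 52.98%, beside 27.62% and 35.95% for the shorter H3f3a-204. H2afv was divided between H2afv-201 (56.40% and 47.93%) and H2afv-202 (43.60% and 52.07%), and the leading form on TPM switched between the replicates. On counts the longer H2afv-202 led in both, with 74.5% and 80.5%. H2afy-201 had 64.44% and 46.01%, and H2afy-203, a transcript with a retained intron, 14.79% and 29.18%.

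Of the 17 histone genes that were not detected, 12 had no count in either library. They were the clustered Hist1h1t, Hist1h2aa, Hist1h2ad and Hist1h2ba and the variant H1f0, H1fx, H1foo, H1fnt, H2afb1, H2afb2, H2afb3 and H2afy2. H1foo and H1fnt are known from germ cells and H2afb1 to H2afb3 from testis. H1f0, the replacement linker histone of many non-dividing cells, and H1fx share no 50-base window with another gene. For H1f0 the limit of 3 counts equals 0.0420 and 0.0442 TPM, and for H1fx 0.0829 and 0.0875. These limits cover counting error only, and whether the listed 0 of both genes reflects the cells or the making of the tables was not tested. In the tables all H1 counts were on clustered genes. H2afy2, which encodes macroH2A2, had a limit of 0.0442 and 0.0466 TPM.

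The listed length set the level of several genes. Of the clustered genes, 17 have M21 models that run 200 or more bases past the stem-loop, where a replication-dependent transcript is cut. In an alternative chosen after seeing the data, counts were divided by the effective length up to the stem-loop, for the 8 detected members with such models whose listed length was unchanged in M21. Their levels were then 1.71 to 5.87 times higher, with a median of 2.38. Hist2h4 moved from 81.04 and 71.17 TPM to 473 and 420, which would make it the second H4 gene after Hist1h4d. Hist3h2a moved from 11.38 and 8.60 to 59.3 and 45.2, Hist1h1c from 89.28 and 75.95 to 212 and 181, and Hist2h3c2 from 334.73 and 287.28 to 570 and 491. The mean of Hist2h3c2 was then 530 ± 56.1 TPM, beside 518 ± 128 for Hist2h3b at its listed length, and the 2 genes overlapped. H2afx, which can also end in a poly(A) tail, moved from 47.40 and 38.36 to 134 and 109, and H2afz then exceeded it by 2.08 ± 0.216 times. The tables do not show where the transcripts ended, so the choice between the 2 lengths was not tested. Hist1h4d is listed at 393 nt, close to the 368 nt from the start of its M21 model to the end of the stem-loop.

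**Figure D4:**
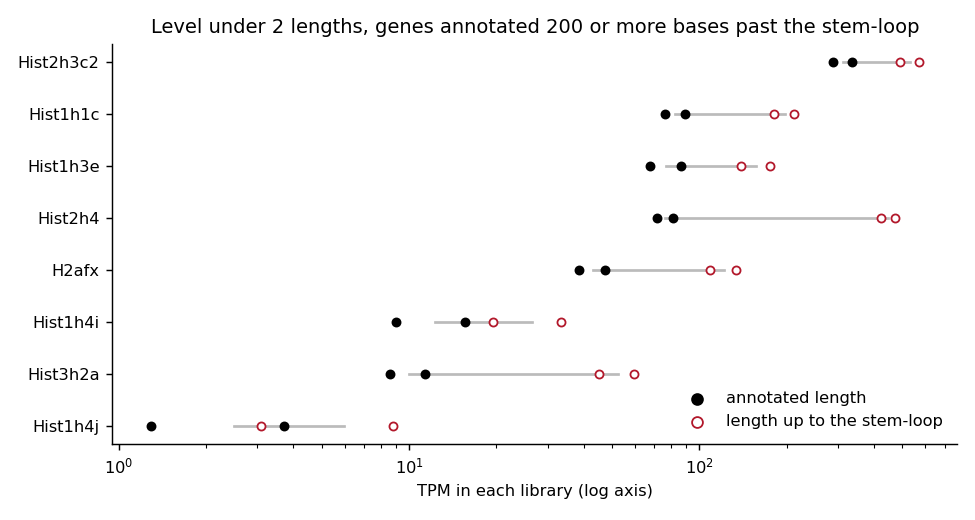
TPM of 8 histone genes in each library under the annotated length (filled) and the length up to the end of the stem-loop (open), on a log axis, with a line between the means. All 8 move up by construction, and Hist2h4 moves most, by 5.87 times.

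Clustered genes were lower in replicate 2 than in replicate 1. Among the 56 clustered genes that averaged 1 TPM or more, 50 (89.3%) had a lower TPM in replicate 2, against 44.9% of all nuclear protein-coding genes at that level. The median log2 ratio of TPM + 0.1 (replicate 2 over replicate 1) was -0.23, and 0.03 over all those genes. By class it was -0.33 for H3, -0.28 for H2A, -0.20 for H2B, -0.19 for H4 and -0.17 for H1. Summed over the class, H3 fell from 2525 to 2013 TPM and H1 from 1457 to 1323. Variant genes did not follow on TPM: 2 of 7 were lower, H2afz and H2afx, and the median was 0.10, but on counts scaled by edgeR's TMM 5 of 7 were lower and the median was -0.08. The clustered count was 53 of 56 on that scale, with a median of -0.28. Over all nuclear protein-coding genes at that level the TMM median was -0.0025, and the share lower was not counted. Because copies share reads, genes linked by shared sequence were also summed: 21 of the resulting 22 clustered sets and single genes were lower in replicate 2. With 1 library a side, the pattern describes these libraries only.

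On TPM the 16 S phase genes, which were all detected, went the other way: 1 of 16 was lower in replicate 2. Their median log2 ratio was 0.06, within the quartiles of all nuclear protein-coding genes averaging 1 TPM or more (-0.13 and 0.18). The list was not counted on the TMM scale, so the contrast with the clustered genes is shown for TPM only. The direction can turn with the scale: Ccne1 had 8.76 and 11.41 TPM but 533 and 452 unscaled expected counts. Mcm3 had 237.38 and 243.21 TPM, Pcna, the sliding clamp of DNA polymerase, 81.91 and 86.93, and the ribonucleotide reductase subunit gene Rrm2 92.29 and 92.32. On unscaled expected counts Mcm3 had 9323 and 9513, Pcna 3507 and 3593, and Rrm2 5311 and 5030. Length and level were set beside the clustered pattern, on TPM: other protein-coding genes listed under 1000 nt had a median of -0.03 (54.5% of 949 lower). Those with a TPM of 50 or more had 0.02 (42.4% of 736 lower).

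**Figure D5:**
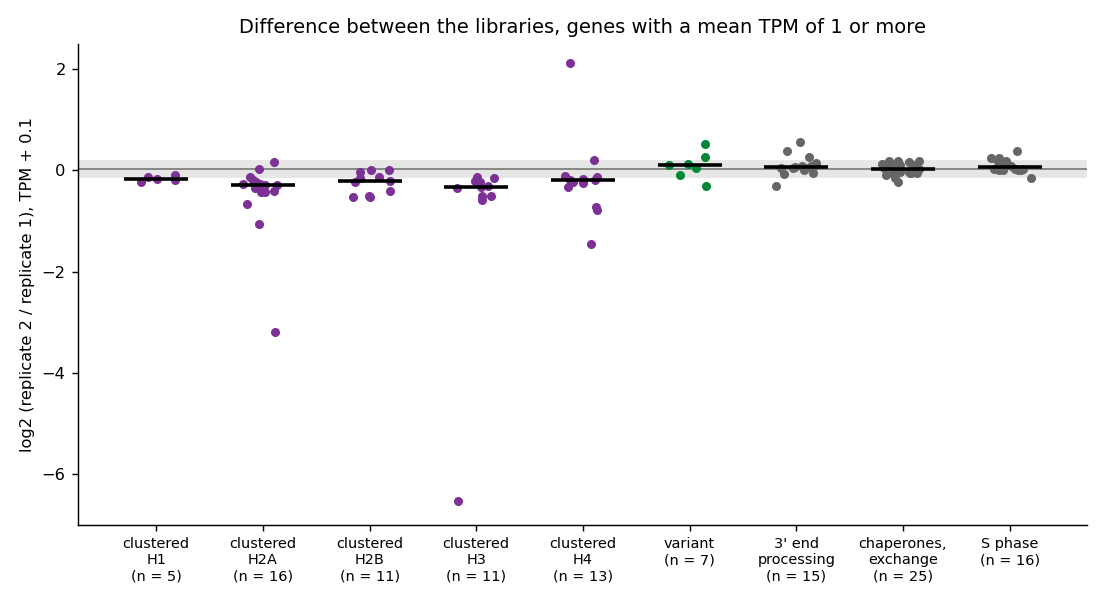
Log2 ratio of TPM + 0.1, replicate 2 over replicate 1, for histone genes by class and for 3 lists of related genes, each gene a point and each black line a median, with the grey band and line for the quartiles and median of all nuclear protein-coding genes. Clustered medians lie between -0.33 and -0.17, below the grey band, and the variant, processing, chaperone and S phase medians lie within it.

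Single members differed more. Of 63 histone genes that averaged 1 TPM or more, 5 (7.94%) were 2-fold or more apart between replicates, against 1.95% of all protein-coding genes at that level and 6.32% of 949 other genes listed under 1000 nt. These were Hist1h2ae (37.63 and 18.00 TPM), Hist1h2an (10.80 and 1.10), Hist1h3h (9.13 and 0), Hist1h4j (3.70 and 1.29) and Hist1h4m (9.01 and 39.37). All 5 are clustered genes that share sequence with other genes, to unlike extents. Windows of 50 bases also found in other genes made up 93.9% of Hist1h3h, 89.8% of Hist1h4m and 85.8% of Hist1h2an. They made up 43.2% of Hist1h2ae and 24.6% of Hist1h4j. Hist1h4m was the only one of the 5 higher in replicate 2, and Hist1h4n, which has the same coding sequence, had 99.18 and 60.22 TPM. Their sum was 108.19 and 99.59, a log2 ratio of -0.12. For Hist1h3h the deposited interval of the estimate in replicate 1 ran from 0.00225 to 23.2 TPM and overlapped that of replicate 2, which reached 4.64. For the other 4 genes the intervals of the replicates did not overlap. Those of Hist1h2an ran from 5.49 to 18.6 TPM and from 0.0899 to 4.68, and those of Hist1h4m from 0.232 to 18.0 and from 24.7 to 51.5. After genes linked by shared sequence were summed, none of the 29 sets and single genes was 2-fold apart. Most of the 5 genes are small parts of their sums, which fixes this outcome for them: the set with Hist1h4j had 600.87 and 512.75 TPM. Whether shared reads account for their differences was not tested.

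The copies limit what can be said of a single clustered gene. Over the coding sequence of the 55 detected clustered genes, a median of 79.2% of the 50-base windows also occurred in another gene, and 21.4% over the 7 detected variant genes. In 10 clustered genes all coding windows did, and in Hist1h1a, Hist1h1b and Hist4h4 none did. The variant median hides a wide range: the share was 100% for H2afz, 79.9% for H3f3a and 46.4% for H3f3b, the highest variants on TPM. It was 11.7% for H2afj and 0 for H2afv and H2afy. Hist1h4d had 42.2% of its coding windows in common with other genes. Coding sequences were identical within Hist1h2ao and Hist1h2ap, Hist2h2aa1 and Hist2h2aa2, Hist1h2bq and Hist1h2br, Hist2h3c1 and Hist2h3c2, and Hist1h4m and Hist1h4n. Their split was uncertain, so their sums are the firmer values: Hist2h2aa1 and Hist2h2aa2 together had 334.51 and 288.25 TPM. The 9 Hist1h3 genes together had 1582 and 1298 TPM, and 11 Hist1h2a genes 1311 and 1028. Hist1h2al, typed as a processed pseudogene and outside the rule, was listed at 112.37 and 82.56 TPM.

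Transcripts of most listed genes for making and placing histones were detected, while their proteins were not measured. Of 16 genes for transcription and 3′ processing of histone transcripts, 15 were detected, against 40.2% of all nuclear protein-coding genes. The median TPM of the list was 17.5, against 9.76 for all detected protein-coding genes. Slbp, which encodes the stem-loop binding protein, was highest at 65.62 and 68.24 TPM, followed by the cap-binding gene Ncbp1 (27.50 and 29.39), the scaffold gene Sympk (24.19 and 31.54) and Cpsf2 (27.65 and 26.17). Lsm11, a subunit of the U7 particle, was lowest at 0.90 and 0.71, and Zfp473 had 1.80 and 1.93. Of this list 3 of 15 genes were lower in replicate 2 on TPM, against 44.9% of nuclear protein-coding genes averaging 1 TPM or more. All 25 chaperone and exchange genes were detected, with a median of 29.2. Npm1 (1187 and 1204 TPM), Set (200.31 and 204.05), Nap1l1 (114.72 and 111.27) and Atrx (87.05 and 84.20) led. Asf1a (3.90 and 4.47), an H3-H4 chaperone, and Chaf1a (8.99 and 9.76), a subunit of the replication-coupled assembly factor CAF-1, were lowest. In this list 11 of 25 were lower in replicate 2 on TPM, beside the same 44.9%. Neither list was counted on the TMM scale.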

How the data were processed

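Total RNA of 2 biological replicates was sequenced, each with a gene and a transcript table. The assembly was mm10 and the annotation GENCODE M4, per the deposited documentation. For the aligner and the quantifier's version, no name was given in the sources used here. Per the file headers, the deposited values include expected counts, which are estimated reads divided among repeated sequences. The TPM and FPKM values deposited by the authors are scaled by effective length and depth. Transcript shares are deposited as percent of a gene's TPM. Depth was 50277914 and 47478888 expected counts, and floors of 3 counts cover counting error only, since reads carried no molecular identifiers that the sources used here name.

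Genes were named from GENCODE M21 by identifier. Detection was a TPM of 1 in both replicates, and log2 ratios used a pseudocount of 0.1. Counts, rounded, were scaled by edgeR 4.0.16 (TMM) and DESeq2 1.42.0 (size factors) in R 4.3.3 as alternatives; this step was tested on simulated data. Other steps used Python 3.11.15, pandas 2.3.3 and Biopython 1.88. The labels call the replicates biological, and nothing else about separate cultures was used.

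Named genes were every detected variant gene, up to 6 highest and the lowest detected gene of each clustered class, identical copies, genes 2-fold apart, those next to the threshold, and the ends of 3 gene lists. Others were named after their values were seen. Members and lists were chosen with earlier results of these data known. For the summed sets, 2 genes were linked if either shared at least 50.0% of its 50-base windows with the other, and links were chained. Members of a set can therefore share less: Hist1h2ac had 14.1% of its windows in common with any other gene. The larger sets thus hold related genes and not only near-identical copies. Values of a gene in the marker lists are left out and not reported here.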

Additional observations from a re-analysis of the deposited data

How the results depend on the processing

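No paired analysis was possible because the study has 1 group and so no groups whose replicates could be paired. The number of histone genes detected stayed within 1.5 times of 62 under every alternative run, from 59 at a TPM of 5 to 64 without replicate 2. The histone share of protein-coding counts, 1.11%, became 4.81% on TPM and 0.321% of all counts, both by construction of the unit or denominator. The clustered share, 93.5% of TPM, became 86.1% on counts and 89.3% without genes under 300 nt of effective length. TPM rescaled over nuclear protein-coding genes raised every class by about the same factor, to 6107 for clustered H1, 8153 for clustered H2A, 6531 for clustered H2B, 9972 for clustered H3, 14249 for clustered H4, 1563 for variant H2A, 1550 for variant H3. On counts, H3f3b over H3f3a was 0.868 and H2afz over H2afx 3.93. The median log2 ratio of variant genes turned from 0.10 to -0.076 under edgeR's TMM and -0.075 under DESeq2's size factors, both on counts. Summing genes linked by shared sequence, an alternative added after seeing the data, left 0 genes 2-fold apart where 5 had been. It gave 21 clustered sets and single genes lower in replicate 2 in place of 50 genes. Fewer units were compared, and low genes were pooled into large sums. Leaving out either replicate moved no level, share or ratio by more than 1 SD, which is fixed by n = 2, so it is no sign of stability. Of the 48 named genes, 43 kept their level within 1 SD with posterior mean TPM. H1f0 over H1fx was not given, since both are listed at 0. Low counts and sequence shared with copies limit the values of single genes.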
